A study of Mus musculus with 8 samples.

Results

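The genes of the proteasome were followed across 8 expression arrays of sorted mouse CD4+ T cells, which carried the deletion of the microRNA gene Mir-21 or came from wild-type littermates. Members were all probes whose gene symbol begins with Psma to Psmg and a digit, which takes in the activators Psme1 to Psme4, and whose signal exceeded that of the negative control beads (detection p under 0.01) on at least 2 of the 8 arrays. Of 65 probes for 44 genes with such a symbol, 55 probes for 40 genes passed, among 11047 probes for 8197 genes that passed of 25697 probes in all. The probes of Psma1, Psma3, Psma6 and Psmc6 did not pass, so nothing is reported on these core and cap subunits. The 2 members closest to the threshold were Psmd6 (probe ILMN_1241910) and Psmd9 (ILMN_2593662), each detected on 2 arrays, and the nearest probe outside it was Psmd11 ILMN_1214057, detected on 1 array. Psmc3ip matched by name only: it encodes a meiotic recombination factor and is not a subunit, and its probe is counted among the 55 but described no further.

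The proteasome is the barrel-shaped protease that degrades ubiquitin-tagged proteins. Its 20S core is built of rings of alpha subunits (Psma genes) and beta subunits (Psmb genes), and Psmb5, Psmb6 and Psmb7 carry the chymotrypsin-like, caspase-like and trypsin-like active sites. The 19S cap holds a ring of ATPases (Psmc genes) that unfold substrates and a set of non-ATPase subunits (Psmd genes) that bind and remove ubiquitin. In lymphocytes and in cells exposed to interferon gamma, Psmb8, Psmb9 and Psmb10 take the places of Psmb5, Psmb6 and Psmb7 and form the immunoproteasome, which is known for producing peptides for presentation on MHC class I. Activated T cells are known to raise protein synthesis and turnover, and proteasome genes of the constitutive type are known to be raised together by Nfe2l1, a transcription factor activated when proteasome capacity is short.

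The cells were CD4+ T cells that had been sorted as a CD25High and a CD45High population. Their donors were mice with a deleted Mir-21 (Mir-21-/-, KO), or littermates with an intact one (WT), and mesenteric lymph nodes were the source tissue. Part of each population was exposed for 30 min to anti-CD3 together with anti-CD28 before its total RNA was taken (stimulated), and part was not (unstimulated). There was 1 array for each of the combinations KO CD25High stimulated, WT CD25High stimulated, KO CD45High stimulated, WT CD45High stimulated, KO CD25High unstimulated, WT CD25High unstimulated, KO CD45High unstimulated and WT CD45High unstimulated. The labels name no Cre or T cell-specific allele, so the deletion is taken as one of the whole animal, and the sources used here give neither the age, number or pooling of the mice nor the CD45 isoform that was sorted on. Matched combinations served as 4 pairs per comparison, so a p-value measures consistency over populations, genotypes or stimulation states and not over mice.

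Signals were bead intensities, turned into normalized log2 intensities, whose precision is limited by how few arrays there are. Between 9208 and 10477 probes were detected per array, and 51 to 54 of the 55 proteasome probes. Mir-21 itself was not analysed here. All 15 probes for markers of regulatory T cells were higher in CD25High than in CD45High cells (median log2 difference 3.11), and 9 of 10 listed T cell marker genes were above background. Transcripts on a list of B cell markers were present as well: their summed intensity was 7210 to 11100 in CD25High cells and 2380 to 3480 in CD45High cells. Of the 12 listed genes on the array, 11 were above background, all but Pax5. The list includes the MHC class II pathway genes Cd74, H2-Aa, H2-Ab1 and H2-Eb1, and the sum was not split by gene. Myeloid and dendritic markers summed to 1710 to 2510 in CD25High and 703 to 1950 in CD45High cells, so the cell source of these transcripts was not settled. The KO CD25High stimulated array stood apart, with a median correlation of 0.888 with the other arrays against 0.938 to 0.965 for each of the others, so the larger means that moved by over 1.5 times when it was left out are given both ways. In whole populations, fewer cells of a type and less RNA per cell cannot be told apart.

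With stimulation, members passed the test in both directions. The 3 immunoproteasome genes Psmb8, Psmb10 and Psmb9 fell, whereas 6 genes of the constitutive core and cap (Psmd1, Psmc4, Psmb2, Psmd11, Psmb6 and Psmc5) and the activator Psme3 rose. No test compared one subunit type with another. Of the 55 proteasome probes, 7 passed the test as higher, which is 12.7% beside 7.93% of all 11047 probes, and 3 as lower, which is 5.45% beside 8.1% of all probes (limma, at an adjusted p under 0.05 by the Benjamini-Hochberg method). The share of higher calls was thus above that of all probes and the share of lower calls below it, and no test of these shares was made. The median log2 difference, stimulated minus unstimulated, was 0.20 over the proteasome probes and 0.00 over all probes, and 36 of 55 were above 0. In 23 members the difference was positive in all 4 pairs (41.8%, against 21.9% of all probes), and in 9 it was negative in all 4 (16.4%, against 21.8%). Stimulated values lay wholly above unstimulated ones for 11 members (20%, against 11.5% of all probes) and wholly below for 4 (7.27%, against 9.5%). The calls rest on few pairs: 0 of the 10 remained without the WT CD25High pair (0% of all probes were then called) or without the KO CD45High pair (0.724%). Without the WT CD45High pair 3 remained (6.7%). All 10 kept their sign, which had to be so because each had the same sign in all 4 pairs. Without the KO CD25High stimulated array, 10 probes were called higher, beside 10.8% of all probes, and 4 lower, beside 12% of all probes, with 9 of the 10 calls shared.

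**Figure D1:**
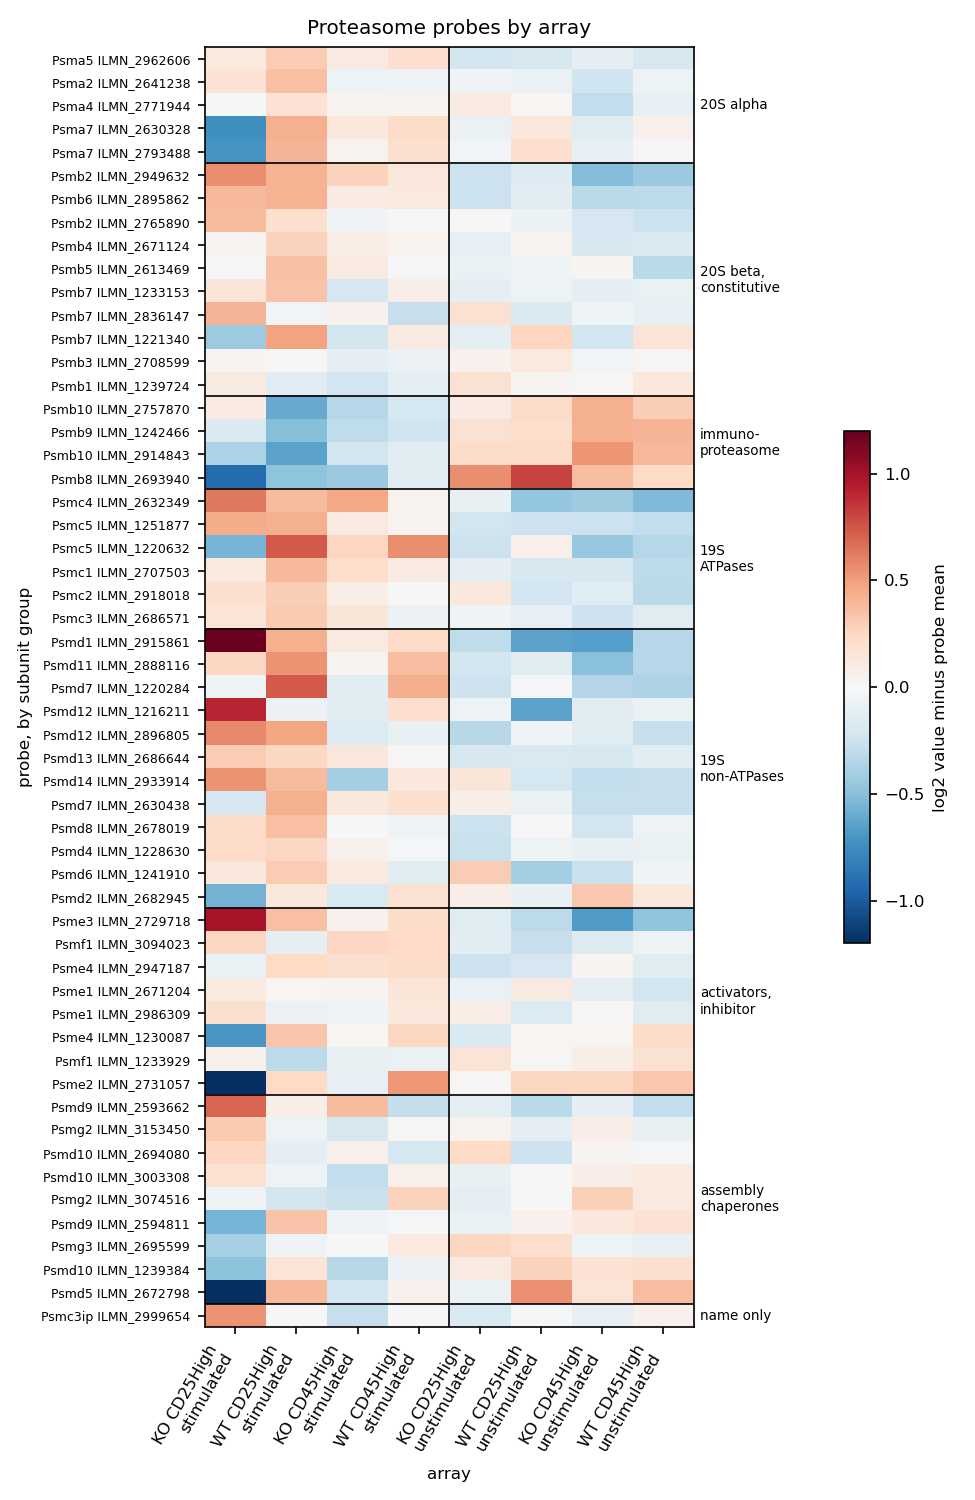
Normalized log2 intensity of each of the 55 proteasome probes minus that probe's mean over the 8 arrays (colour, red above and blue below the mean), with probes as rows grouped by subunit type and arrays as columns, the 4 stimulated arrays left of the 4 unstimulated ones. The 4 immunoproteasome rows are mostly blue on the stimulated side and red on the unstimulated side, the ATPase rows mostly run the other way, and the KO CD25High stimulated column holds the most extreme colours.

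The sequences around the starts of 5 of these genes are shown because they stand for both directions of call: the 3 immunoproteasome genes that fell, and Psmb6 and Psme3 from those that rose. RefSeq windows of GRCm38.p6, from 250 bases before to 50 bases after the annotated start, were found for 9 of the 10 called genes and for 34 of the 40 member genes. Each is written 5′ to 3′ in the direction of transcription, and capitals mark matches, on either strand, to any of 6 motifs: the interferon-stimulated response element (GAAA, any 2 bases, then GAAA), the gamma-activated site TTCNNNGAA, the antioxidant response element TGACNNNGC, the CCAAT box CCAAT, the cyclic AMP response element TGACGTCA and the E-box CACGTG. The 5 were chosen after the matches were seen.
Psmb8 promoter, chr17:34197945-34198244, plus strand: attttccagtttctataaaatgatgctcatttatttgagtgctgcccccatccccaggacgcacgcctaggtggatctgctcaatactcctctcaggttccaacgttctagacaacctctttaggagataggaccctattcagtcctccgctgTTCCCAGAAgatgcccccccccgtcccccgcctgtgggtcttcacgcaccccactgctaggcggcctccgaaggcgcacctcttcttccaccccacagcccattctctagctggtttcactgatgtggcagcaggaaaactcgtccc
Psmb9 promoter, chr17:34187281-34187580, minus strand: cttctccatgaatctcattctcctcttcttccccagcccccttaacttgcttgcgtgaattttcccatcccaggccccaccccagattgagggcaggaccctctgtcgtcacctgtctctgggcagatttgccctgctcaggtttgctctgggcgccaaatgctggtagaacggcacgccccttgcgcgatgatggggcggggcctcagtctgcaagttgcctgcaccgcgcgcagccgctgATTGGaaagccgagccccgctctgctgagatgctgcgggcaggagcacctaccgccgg
Psmb10 promoter, chr8:105938343-105938642, minus strand: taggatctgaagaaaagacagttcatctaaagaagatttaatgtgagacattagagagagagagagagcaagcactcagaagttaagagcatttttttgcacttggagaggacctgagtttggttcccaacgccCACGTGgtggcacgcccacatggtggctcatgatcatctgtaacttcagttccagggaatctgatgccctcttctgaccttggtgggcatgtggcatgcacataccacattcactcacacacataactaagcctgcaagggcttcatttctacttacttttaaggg
Psmb6 promoter, chr11:70525107-70525406, plus strand: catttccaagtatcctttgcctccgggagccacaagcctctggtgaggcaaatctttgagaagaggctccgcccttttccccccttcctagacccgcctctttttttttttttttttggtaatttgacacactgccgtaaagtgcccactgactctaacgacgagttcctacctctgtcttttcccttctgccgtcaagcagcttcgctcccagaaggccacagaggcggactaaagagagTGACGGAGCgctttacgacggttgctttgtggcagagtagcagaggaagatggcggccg
Psme3 promoter, chr11:101315963-101316262, plus strand: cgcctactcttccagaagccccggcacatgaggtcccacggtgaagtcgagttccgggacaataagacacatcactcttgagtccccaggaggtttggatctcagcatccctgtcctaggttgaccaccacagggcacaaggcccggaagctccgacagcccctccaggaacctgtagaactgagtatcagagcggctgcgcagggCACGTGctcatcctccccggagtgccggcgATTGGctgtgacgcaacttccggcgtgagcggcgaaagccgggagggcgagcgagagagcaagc

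Counted from the start, with negative positions before it, Psmb8 holds a gamma-activated site at -97 to -89, Psmb9 a CCAAT box on the opposite strand at -8 to -4, and Psmb10 an E-box at -116 to -111. Psmb6 holds an antioxidant response element at -9 to -1, and Psme3 an E-box at -44 to -39 and a CCAAT box on the opposite strand at -14 to -10. The windows of Psmd1, Psmc4, Psmd11 and Psmc5 held none of the 6 motifs. Of 32851 promoters in the table, 8.3% held the gamma-activated site, 37.4% the CCAAT box, 7.15% the E-box, 12.4% the antioxidant response element, 3.44% the interferon-stimulated response element and 1.79% the cyclic AMP response element. Among 36 promoters of member genes the numbers were 2, 11, 4, 5, 4 and 0 in the same order of motifs. The motifs do not overlap one another in the printed windows, and a match is a description of letters and not a measured binding site. Psmb9 and Psmb8 also lie close together in the MHC region of chromosome 17, where the gene order is H2-DMb1, Psmb9, Tap1, Psmb8, Tap2 and H2-Ob.

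Among the immunoproteasome genes, Psmb8, which takes the place of the chymotrypsin-like Psmb5, showed the largest difference. In the array order KO CD25High, WT CD25High, KO CD45High and WT CD45High, which is kept below, Psmb8 had log2 intensities of 6.69, 7.13, 7.17 and 7.49 in stimulated cells, against 8.17, 8.42, 7.98 and 7.85 in unstimulated cells. The groups did not overlap, and the decrease was larger in the CD25High pairs (-1.47 and -1.29) than in the CD45High pairs (-0.81 and -0.36). The mean log2 difference was -0.98 (SE 0.20, 4 pairs, limma adjusted p = 0.0266), a level 0.506 times that of unstimulated cells. With no background correction it was -0.65, and it passed there too.

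Psmb10, which takes the place of the trypsin-like Psmb7, had log2 intensities of 9.81, 9.55, 9.97 and 10.05 in stimulated cells, against 10.41, 10.41, 10.72 and 10.59 in unstimulated cells, on its brighter probe ILMN_2914843. All stimulated values were below all unstimulated ones, with a mean log2 difference of -0.69 (SE 0.12, 4 pairs, limma adjusted p = 0.0193). Its other probe, ILMN_2757870, averaged -0.53 (SE 0.17, adjusted p = 0.0831), with pair differences of 0.00 in KO CD25High cells and of -0.82, -0.77 and -0.51 in the other pairs. Without the KO CD25High stimulated array this probe averaged -0.70 and passed the test, so that all 4 immunoproteasome probes were then called lower.

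Psmb9, which takes the place of the caspase-like Psmb6 but does not cleave after acidic residues as Psmb6 does, had log2 intensities of 9.99, 9.66, 9.86 and 9.93 in stimulated cells, against 10.35, 10.38, 10.59 and 10.58 in unstimulated cells. No value was shared between the groups' ranges, and the difference of -0.61 (SE 0.13, 4 pairs, limma adjusted p = 0.0262) was of like size in the WT CD25High, KO CD45High and WT CD45High pairs (-0.72, -0.72 and -0.65) and smaller in the KO CD25High pair (-0.36). All 4 immunoproteasome probes made up the 4 members whose stimulated values lay wholly below the unstimulated ones. For Psmb10 ILMN_2757870 this separation was smaller than the second decimal, with 9.98 on both the stimulated and the unstimulated KO CD25High array.

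Of the constitutive catalytic subunits that these 3 proteins replace, 1 rose and none passed the test as lower. Psmb6, the caspase-like subunit that Psmb9 replaces, had log2 intensities of 10.24, 10.27, 9.95 and 9.97 in stimulated cells, against 9.59, 9.71, 9.53 and 9.54 in unstimulated cells. It rose in each pair, by 0.42 to 0.65, with a mean log2 difference of 0.52 (SE 0.12, 4 pairs, limma adjusted p = 0.0339). Psmb5, the chymotrypsin-like subunit that Psmb8 replaces, had log2 intensities of 7.52, 7.89, 7.65 and 7.53 in stimulated cells, against 7.46, 7.49, 7.58 and 7.22 in unstimulated cells. Its groups overlapped and it did not pass the test (0.21, SE 0.13, adjusted p = 0.28). Psmb7, the trypsin-like subunit that Psmb10 replaces, had 3 probes with differences of -0.03, 0.07 and 0.18, of which none passed.

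The change of each immunoproteasome gene was also set against that of its counterpart within each pair, on the brightest probe of each gene and with no test. The change of Psmb9 minus that of Psmb6 averaged -1.13 on the log2 scale (SD 0.12, range -1.29 to -1.01), that of Psmb8 minus Psmb5 averaged -1.19 (SD 0.50, range -1.69 to -0.67) and that of Psmb10 minus Psmb7 averaged -0.65 (SD 0.35, range -1.09 to -0.28). All 3 were below 0 in 4 of 4 pairs. For Psmb9 with Psmb6 and for Psmb8 with Psmb5 this follows from the values already given. In every pair the change of the first gene was below 0 and that of the second above 0. For Psmb10 with Psmb7 it depends on the probe chosen. In the KO CD25High pair the other Psmb10 probe, ILMN_2757870, stood at 0.00, and Psmb7 stood at -0.32 on its brightest probe. The spread was narrowest for Psmb9 with Psmb6 and widest for Psmb8 with Psmb5.

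**Figure D2:**
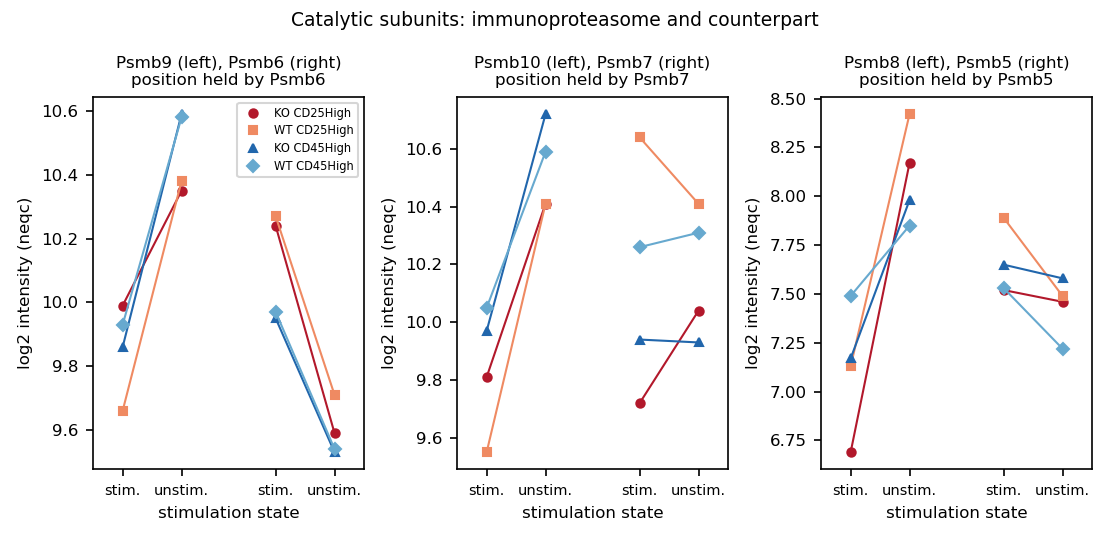
Normalized log2 intensity (vertical axis, a scale of its own in each panel) of each immunoproteasome subunit (left of each panel) and of its constitutive counterpart (right), in stimulated and unstimulated cells; each line joins the 2 arrays of a genotype and population, and Psmb7 and Psmb10 are shown by their brightest probes. All 12 lines of the immunoproteasome genes run lower on the stimulated side, all 4 of Psmb6 run higher there, and heights of different genes are not comparable because probes differ in response.

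Of the other core subunits, Psmb2, a structural beta subunit, rose on 1 of its 2 measured probes. Probe ILMN_2949632 had log2 intensities of 11.03, 10.89, 10.75 and 10.61 in stimulated cells, against 10.22, 10.32, 9.96 and 10.03 in unstimulated cells, with no overlap and a difference of 0.69 (SE 0.12, adjusted p = 0.0183). The brighter probe ILMN_2765890 moved the same way in all 4 pairs, by 0.16 to 0.37, but its groups overlapped and its mean of 0.27 did not pass (adjusted p = 0.158). The remaining beta subunits Psmb1, Psmb3 and Psmb4 were between -0.18 and 0.22, and none passed. The alpha subunits lay between -0.03 and 0.37 over 5 probes of 4 genes, with 0 calls. Psma5 was at the top of them at 0.37 (SE 0.12, adjusted p = 0.0842), and its stimulated values did not overlap the unstimulated ones. At the bottom was Psma7, whose 2 probes averaged 0.02 and -0.03, with the KO CD25High pair (-0.66 and -0.67) opposite in sign to the other 3 pairs (0.14 to 0.31). With the KO CD25High stimulated array left out they averaged 0.25 and 0.18, with no call.

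The ATPase ring of the cap was above 0 on all 6 measured probes, with a median log2 difference of 0.45, and 2 of 5 measured genes were called. Psmc4 had log2 intensities of 10.56, 10.31, 10.39 and 9.97 in stimulated cells, against 9.84, 9.46, 9.50 and 9.40 in unstimulated cells. Its groups did not overlap, and it rose by 0.56 to 0.88 in the pairs, with a mean of 0.76 (SE 0.12, 4 pairs, adjusted p = 0.015), the lowest adjusted p of any member. Psmc5 had log2 intensities of 10.05, 10.03, 9.71 and 9.64 in stimulated cells, against 9.38, 9.36, 9.35 and 9.31 in unstimulated cells, on its brighter probe ILMN_1251877. The gap was wider in the CD25High pairs (0.67 in each) than in the CD45High pairs (0.36 and 0.32), and the mean of 0.51 passed narrowly (SE 0.13, adjusted p = 0.0451). The other Psmc5 probe, ILMN_1220632, had a like mean of 0.50 but did not pass (adjusted p = 0.155), with -0.30 in the KO CD25High pair against 0.68 to 0.89 elsewhere. With the KO CD25High stimulated array left out it averaged 0.76 and passed, while ILMN_1251877 came to 0.45 and did not (adjusted p = 0.052). Psmc1, Psmc2 and Psmc3 were positive in all 4 pairs, with means of 0.41, 0.28 and 0.28, and did not pass.

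The non-ATPase subunits of the cap were above 0 on 11 of 12 probes, with 2 of 10 measured genes called. Psmd1, the large scaffold subunit of the cap base, had log2 intensities of 7.36, 6.61, 6.29 and 6.42 in stimulated cells, against 5.88, 5.54, 5.52 and 5.84 in unstimulated cells. The increase was largest on the KO CD25High arrays (1.47) and present in the other pairs (1.08, 0.77 and 0.58), with a mean of 0.98 (SE 0.17, 4 pairs, adjusted p = 0.019), or 1.97-fold. Without the KO CD25High stimulated array its mean was 0.81 and with no background correction 0.43, and it passed under both. Over the 13 alternatives its mean lay between 0.43 and 1.11. Psmd11, a lid subunit that helps hold cap and core together, had log2 intensities of 7.42, 7.71, 7.20 and 7.54 in stimulated cells, against 6.95, 7.03, 6.67 and 6.83 in unstimulated cells. Its groups did not overlap, and its mean difference was 0.59 (SE 0.12, adjusted p = 0.0245), or 0.35 with no background correction, where it also passed.

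No other non-ATPase gene of the cap passed. Psmd6 and Psmd2 were above 0 in 2 of 4 pairs each. Psmd14, the deubiquitinase of the lid, averaged 0.31 (SE 0.15, adjusted p = 0.194), with -0.12 in the KO CD45High pair and 0.39 to 0.58 in the others. Psmd7 had means of 0.49 and 0.28 on 2 probes. Both Psmd7 probes passed without the KO CD25High stimulated array, at 0.59 and 0.46. Psmd2, a ubiquitin-binding scaffold, was the lowest of the group at -0.22 (SE 0.18, adjusted p = 0.42), or -0.08 without the KO CD25High stimulated array, and its probe was detected on 6 of 8 arrays. Over the constitutive core and cap together, 6 of 33 probes were called higher and 0 lower, beside 7.93% and 8.1% of all probes. Of these 33 probes 28 were above 0, and the median was 0.28. Without the KO CD25High stimulated array 9 of 33 were called higher (27.3%, beside 10.8% of all probes) and 0 lower (beside 12%). There 30 of 33 were above 0, beside 5599 of all 11047 probes, and no test of these shares was made.

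Among the activators, which open the core without the cap, Psme3 was the 1 gene called. Psme3, the nuclear activator, had log2 intensities of 10.27, 9.64, 9.33 and 9.50 in stimulated cells, against 9.14, 8.97, 8.60 and 8.80 in unstimulated cells. The stimulated values lay above all unstimulated ones, with increases of 0.66 to 1.13 and a mean of 0.80 (SE 0.13, 4 pairs, adjusted p = 0.016), or 1.75-fold. Psme1, the alpha chain of the interferon-inducible activator, averaged 0.10 (SE 0.12, adjusted p = 0.593) on its brighter probe. Psme2, its beta chain, had log2 intensities of 6.40, 8.14, 7.80 and 8.42 in stimulated cells, against 7.91, 8.15, 8.15 and 8.22 in unstimulated cells. Its mean was -0.42 (SE 0.28, adjusted p = 0.328), with -1.51 in the KO CD25High pair and -0.35 to 0.19 in the others, and it was -0.06 without the KO CD25High stimulated array. Psme4, a nuclear activator used in DNA repair and spermatogenesis, averaged 0.28 (SE 0.12, adjusted p = 0.153) on its brighter probe and -0.05 on its dimmer one. Psmf1, an inhibitor of the core in the test tube, averaged -0.21 (SE 0.12, adjusted p = 0.241), with 0.31 on its dimmer probe.

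The assembly chaperones, which are counted by their symbols but are not parts of the finished particle, showed 0 calls over 9 probes, with a median of -0.13. Psmd5, a chaperone of the cap base, was lowest at -0.50 (SE 0.18, adjusted p = 0.11) and below 0 in all 4 pairs, and came to -0.29 without the KO CD25High stimulated array. Psmd10, another chaperone of the base, averaged -0.06 on its brightest probe and -0.37 and 0.00 on the others. Psmg2, a chaperone of the alpha ring, averaged -0.13 (SE 0.16, adjusted p = 0.575). Of 13 member genes with several probes, 6 had probes of opposite sign in this comparison.

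**Figure D3:**
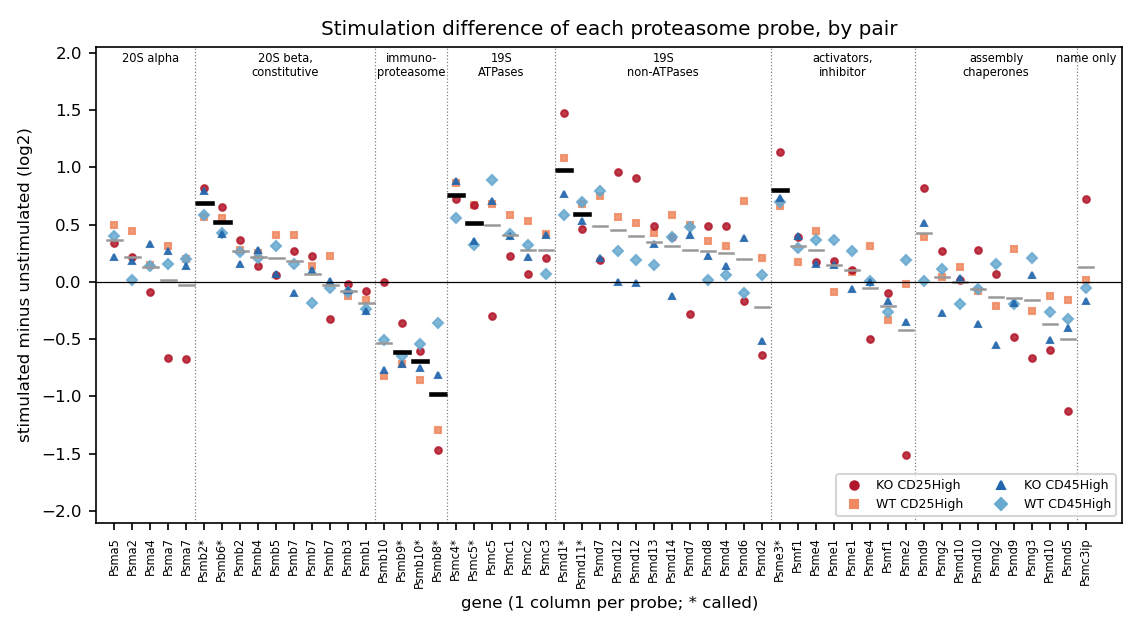
Stimulated minus unstimulated log2 intensity (vertical axis) of each of the 55 proteasome probes (columns, grouped by subunit type), with 1 point per pair (KO or WT, CD25High or CD45High) and a bar at the mean, black where the probe was called. The called immunoproteasome bars lie between -0.98 and -0.61, the called bars of core, cap and activator between 0.51 and 0.98, and the KO CD25High points are often the farthest from the bar.

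Stimulation was also tested in each population, where 2 pairs each share an error estimate. Leaving out an array or a pair leaves 1 pair in its population. The error then comes from the pairs of the other population, so such counts are not replicated in the population that lost a pair. In CD25High cells, 4 proteasome probes were called higher (7.27%, beside 7.36% of all probes) and 2 lower (3.64%, beside 6.77%), or 6 in all (10.9%, beside 14.1%), shares below those of all probes. Psmd1 rose by 1.28 (SE 0.19, adjusted p = 0.0181), Psme3 by 0.90 (adjusted p = 0.0363), Psmc4 by 0.79 (adjusted p = 0.0409) and Psmc5 by 0.67 (adjusted p = 0.0482). Psmb8 fell by 1.38 (SE 0.19, adjusted p = 0.0168) and Psmb10 fell by 0.73 (adjusted p = 0.0482), each on the log2 scale. In CD45High cells 0 members passed, beside 0.697% of all probes higher and 0.244% lower, and 11 members had an unadjusted p under 0.05. There Psmc4 stood at 0.72, Psme3 at 0.71, Psmd1 at 0.68, Psmb9 at -0.68, Psmb10 at -0.64 and Psmb8 at -0.59. Without the KO CD25High stimulated array, 12 members (21.8%) passed in CD25High cells, beside 22.7% of all probes, and 11 (20%) in CD45High cells, beside 22.2%. Without either CD45High pair 0 passed in CD25High cells, beside 1.53% of all probes. The difference between the populations was tested itself and gave 0 calls of 11047 probes, with 1047 probes and 1 member, Psmb8, at an unadjusted p under 0.05. For Psmb8 that difference was -0.80 (SE 0.27, adjusted p = 0.492), so a larger decrease in CD25High cells was not shown.

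Other genes of the ubiquitin and antigen presentation pathways were read from lists, whose counts stand beside 7.93% of all probes called higher and 8.1% called lower. Of 6 measured proteasome-associated genes outside the symbol rule, with 8 probes, 1 passed: Adrm1, a ubiquitin receptor of the cap, which rose by 0.77 (SE 0.16, adjusted p = 0.0288). Adrm1 had log2 intensities of 9.18, 8.91, 8.66 and 8.39 in stimulated cells, against 8.01, 8.01, 7.97 and 8.06 in unstimulated cells, without overlap. Pomp, the chaperone that matures the core, averaged -0.28 (adjusted p = 0.149). Among 13 measured genes of ubiquitin, its activation and delivery, with 18 probes, 2 rose on 1 probe each, a share near that of all probes: Ubqln4, a shuttle that carries ubiquitinated proteins to the proteasome, by 0.97 (SE 0.12, adjusted p = 0.00906), and Vcp, the segregase that extracts them from complexes, by 0.58 (SE 0.12, adjusted p = 0.0248).

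In the class I antigen processing list, 0 probes passed as higher and 3 of 16 as lower, beside 7.93% and 8.1% of all probes, and 2 of the 3 belong to 1 gene. These were both probes of H2-T23, a non-classical class I molecule (-0.70, adjusted p = 0.0154, and -0.64, adjusted p = 0.0496), and 1 probe of Tapbp, which bridges the peptide transporter and class I (-0.96, adjusted p = 0.0393). The transporter genes Tap1 and Tap2, the neighbours of Psmb8 and Psmb9, averaged -0.39 and -0.25 and did not pass, and Tap1 came to -1.28 in the KO CD25High pair against -0.29 to 0.10 in the others. B2m, the light chain of class I, averaged 0.10 and 0.14 on 2 probes, with no call. Of 11 measured regulators of proteasome genes, with 18 probes, 1 passed: Mafg, a partner of the Nfe2l factors, which rose by 1.47 (SE 0.16, adjusted p = 0.00748). Nfe2l1 averaged 0.84 (SE 0.27, adjusted p = 0.0842), with 1.88 in the KO CD25High pair and 0.31 to 0.84 in the others. None of the 5 probes of Irf1, an activator of immunoproteasome genes, passed.

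Markers of other cells moved with stimulation too. The summed intensity of CD8 T and NK cell markers was 995 to 1180 in stimulated and 1350 to 1500 in unstimulated cells, with 3 of 5 probes called lower, and Cd8a, Ncr1 and Klrk1 were not above background. That of myeloid and dendritic markers was 703 to 1720 in stimulated and 1400 to 2510 in unstimulated cells, with 2 of 9 probes called lower, and Csf1r, Itgam, Cd14, Cybb and S100a9 were not above background. B cell markers summed to 2670 to 11100 in stimulated and 2380 to 8170 in unstimulated cells. T cell markers were below 0 on all 11 probes, with 0 calls, and summed to 15700 to 28800 in stimulated and 28700 to 32600 in unstimulated cells. The part of these shifts in the immunoproteasome decrease was not tested.

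Between the sorted populations, 0 of 55 proteasome probes passed, beside 5.4% of all probes called higher in CD25High cells and 2.89% called lower, and 3 members had an unadjusted p under 0.05. The median log2 difference, CD25High minus CD45High, was 0.09 over members and -0.03 over all probes, with 38 of 55 above 0, and it was 0.22 against 0.09 when arrays were scaled to their median, a scaling that moved the median of all probes by over 0.1. Constitutive core and cap probes were above 0 on 28 of 33, with a median of 0.15, and all 4 immunoproteasome probes were below 0, with a median of -0.12, although Psmb8 and Psmb9 turned to 0.09 and 0.02 when arrays were scaled to their median. In 12 members the difference was positive in all 4 pairs (21.8%, against 16.7% of all probes), and in 3 it was negative in all 4 (5.45%, against 19%). For 0 members did the 4 CD25High and 4 CD45High values lie wholly apart, which 6.72% of all probes did as higher and 5.58% as lower.

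Psme3 had log2 intensities of 10.27, 9.64, 9.14 and 8.97 in CD25High cells (KO stimulated, WT stimulated, KO unstimulated and WT unstimulated), against 9.33, 9.50, 8.60 and 8.80 in CD45High cells. The groups overlapped, and the mean of 0.44 (SE 0.17, adjusted p = 0.176) held a value of 0.94 in the KO stimulated pair against 0.13 to 0.54 in the others, and was 0.28 without the KO CD25High stimulated array. Psmd14 showed the same spread, with a mean of 0.43 (SE 0.17, adjusted p = 0.192) and 0.95 in the KO stimulated pair, or 0.25 without that array. The 2 Psmb2 probes were steadier across pairs, at 0.26 to 0.29 for ILMN_2949632 and 0.18 to 0.42 for ILMN_2765890. On the lower side, Psme2 averaged -0.50 (SE 0.24, adjusted p = 0.253), with -1.40 in the KO stimulated pair and -0.28 to -0.07 in the others, and was -0.20 without that array. Psmb10 averaged -0.29 (SE 0.12, adjusted p = 0.218) on its brighter probe, below 0 in all 4 pairs, and Psmd2 averaged -0.23 (adjusted p = 0.299). B cell markers were higher in CD25High cells on 13 of 20 probes, and their part in these values was not tested.

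Within the other groups, the values were small. Psma2 was highest among alpha subunits at 0.20 and Psma7 lowest at -0.13, or 0.12 on the same probe without the KO CD25High stimulated array, and among the ATPases Psmc4 was highest at 0.23. Psmb8 differed by -0.02, or 0.13 without that array, with pair values from -0.48 to 0.57, negative in the stimulated pairs and positive in the unstimulated ones. Among the chaperones Psmg2 was lowest at -0.20, or -0.34 without that array, and Psmd10 was highest by brightest probe at 0.02.

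Deletion of Mir-21 was followed by 0 calls among proteasome probes and 0 of 11047 probes in all (limma), with 9 members and 1083 probes at an unadjusted p under 0.05. The lowest adjusted p of any member was 0.493, which was also the lowest over all probes. The median log2 difference, KO minus WT, was -0.03 over members and 0.04 over all probes, and it was 0.09 over both when arrays were scaled to their median. In 12 members the difference was negative in all 4 pairs (21.8%, against 10.1% of all probes) and in 5 it was positive in all 4 (9.09%, against 13.5%). KO and WT values lay wholly apart for 1 member as higher and 1 as lower (1.82% each), beside 1.36% and 1.63% of all probes.

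The spread over members depended on the pair. The CD25High stimulated pair ran from -1.74 to 0.97, with 6 of 55 members under -1, and the other 3 pairs ran from -0.64 to 0.70. Tested in CD25High cells alone and for the difference between populations, genotype gave 0 calls of all 11047 probes. Without the CD25High unstimulated pair, so that the CD25High value came from the pair with the KO CD25High stimulated array, 15 members (27.3%) were called in CD25High cells, beside 27.9% of all probes, and 8 (14.5%) for the difference, beside 16%. Without the CD25High stimulated pair both counts of members were 0. Psmd5 had log2 intensities of 5.44, 6.57, 6.42 and 6.82 in KO cells (CD25High stimulated, CD25High unstimulated, CD45High stimulated and CD45High unstimulated), against 7.04, 7.20, 6.70 and 7.02 in WT cells. It was lower in each pair, by 0.19 to 1.60, with a mean of -0.68 (SE 0.25, adjusted p = 0.493), and of -0.37 without the KO CD25High stimulated array. Psme2 had log2 intensities of 6.40, 7.91, 7.80 and 8.15 in KO cells, against 8.14, 8.15, 8.42 and 8.22 in WT cells, with a mean of -0.67 (SE 0.28, adjusted p = 0.493) that held -1.74 in the CD25High stimulated pair, and was -0.31 without the KO CD25High stimulated array. For both genes the KO and WT values overlapped.

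Probes of a gene often disagreed on the genotype difference, with opposite signs in 7 of 13 genes. Psmb7 had log2 intensities of 9.72, 10.04, 9.94 and 9.93 in KO cells, against 10.64, 10.41, 10.26 and 10.31 in WT cells, on ILMN_1221340. These did not overlap, with a mean of -0.50 (SE 0.14, adjusted p = 0.493), while ILMN_2836147 of the same gene averaged 0.29 and was positive in all 4 pairs. Psmc5 averaged -0.51 on ILMN_1220632, or -0.25 without the KO CD25High stimulated array, and 0.04 on ILMN_1251877. Psmd9, a base chaperone, averaged 0.42 on ILMN_2593662, which was detected on 2 arrays, and -0.29 on ILMN_2594811, which was detected on 3 and came to -0.08 without that array. Psmd10 averaged 0.30 on ILMN_2694080, the member whose KO values all lay above the WT values, and -0.28 on ILMN_1239384, or -0.16 without that array. Psmc4, with 1 probe, averaged 0.29 (SE 0.11, adjusted p = 0.493) and was positive in all 4 pairs. The immunoproteasome probes lay between -0.22 and 0.15, Psmb8 at the bottom.

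**Figure D4:**
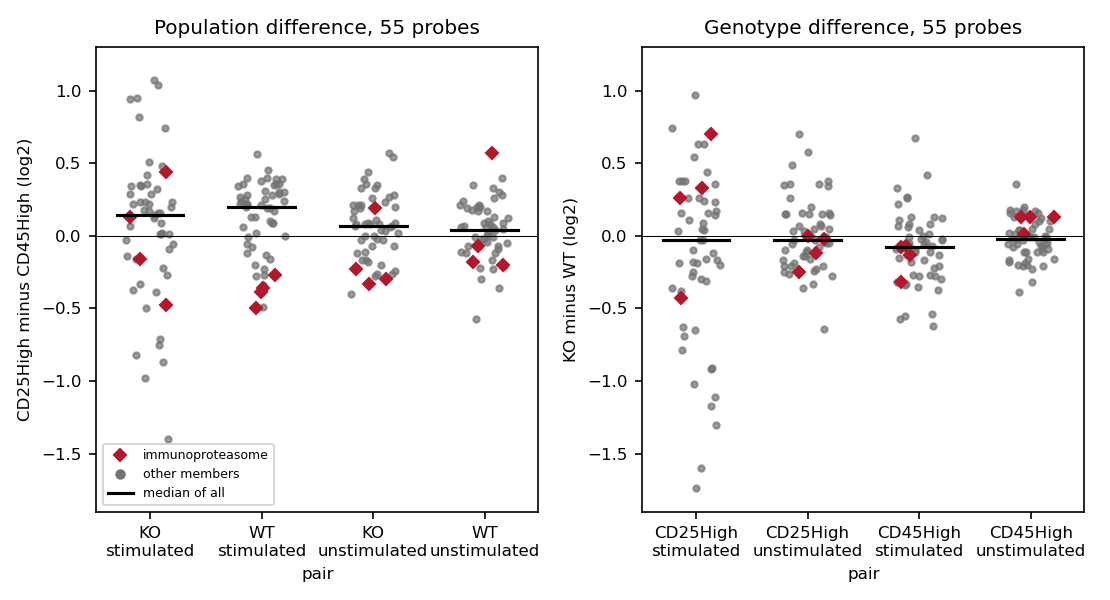
Log2 difference (vertical axis) of the 55 proteasome probes in each matched pair (horizontal axis), CD25High minus CD45High on the left and KO minus WT on the right, with immunoproteasome probes as red diamonds, other members as grey points and the median of all members as a bar. The medians lie between -0.08 and 0.20, and the pairs that hold the KO CD25High stimulated array have the widest spread, from -1.40 to 1.07 and from -1.74 to 0.97.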

How the data were processed

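Messenger RNA of 8 samples was measured on Illumina MouseRef-8 v2.0 arrays, 1 per combination of genotype, population and stimulation, grouped by their labels. Per the file headers, the deposited non-normalized table holds bead intensities on a linear scale with detection p-values. The authors also deposited each intensity's standard error and bead number, used here as quality scores. The deposited value table of 14533 probes holds log2 values, which the authors made with limma per the submitters' processing notes. Its columns have a median of 5.81 each, so it is not centred, and differ from the values used here by at most 0.0626. The scanner software is not stated in those sources.

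Intensities were processed with neqc (R 4.3.3, limma 3.58.1), which estimates background from the detection p-values, adds an offset of 16 and normalizes by quantiles. A probe entered the lmFit and eBayes models where 2 or more arrays had a detection p under 0.01, with matched pairs as blocks and 3 residual degrees of freedom, or 2 with separate effects per population. Pairs follow the labels' factors and no shared animal. Across probes, the correlation between pairs' differences was 0.387 to 0.813 (population), 0.33 to 0.72 (stimulation) and 0.0255 to 0.419 (genotype). A call is a Benjamini-Hochberg adjusted p under 0.05 over 11047 probes. Scripts were tested on simulated data. The median standard error of a probe's bead signal was 2.42 to 2.74% per array, from a median of 38 to 40 beads.

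Members and gene lists were chosen with earlier results of these data known. Named were up to 6 called members per direction and comparison, or the 4 with the largest difference of 1 sign in every pair where fewer than 3 were called, then the catalytic subunits, activators and inhibitor, the extremes of each subunit group and up to 4 called genes per other list. Psmb3, Psmb4, Psmc2, Psmd7, Psmd12, Pomp, Tap1, Tap2, B2m, Nfe2l1 and Irf1 were named after their values were seen. Where a gene has several probes the brightest describes it. All 44 symbols are current in GRCm38.p6. Of genes on chromosome 18, no sequence is shown. Alternatives covered background correction, normalization, the filter, the deposited values, the block, the variance model, averaged probes, 1 array and each pair. Erythroid markers had 1 measured probe, at 0.50 for stimulation, 0.76 for population and 0.51 for genotype on the log2 scale, with no call.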

Additional observations from a re-analysis of the deposited data

Results flagged for a closer look

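Only the proteasome probes chosen by the naming rule given with the processing were searched here. For 6 of them the KO minus WT difference had the same sign in both CD25High pairs and the opposite sign in both CD45High pairs. The difference between the populations was tested with limma for each, and none passed, with adjusted p-values of 0.824 to 0.83. Without the CD25High unstimulated pair, Psmd1 alone of the 6 passed (0.97, adjusted p = 0.0266), among 8 members called beside 16% of all probes. There the CD25High value comes from the pair that holds the KO CD25High stimulated array, and without that array 0 members passed. Psmd1, the cap scaffold, differed by 0.77 between the populations (0.54 in CD25High and -0.22 in CD45High cells). Psme3, the nuclear activator, differed by 0.59 (0.40 and -0.19), and Psmd14, the deubiquitinase, by 0.54 (0.26 and -0.28). The inhibitor Psmf1 differed by 0.33 on its brighter probe (0.26 and -0.06) and the beta subunit Psmb1 by 0.30 (0.19 and -0.11). Psmb5, the chymotrypsin-like subunit, ran the other way, at -0.44 (-0.20 and 0.24). Psmd12 ILMN_1216211, a cap probe outside the naming rule, showed the pattern too. Its differences were 0.58 and 0.97 in the CD25High pairs and -0.06 and -0.33 in the CD45High pairs. Its difference between the populations did not pass, and was 1.17 without the CD25High unstimulated pair. How many of all probes show the pattern was not counted.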

How the results depend on the processing

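All 10 stimulation calls kept their sign under the 13 alternatives run for them. Only alternatives that change the values themselves could have altered a sign, since each call had the same sign in every pair. For stimulation, leaving out the KO CD25High stimulated array and leaving out its pair are the same fit. All 10 were also called with no background correction, cyclic loess, the probes detected on all 8 arrays, the deposited values, no replicate block and the trended robust variance model. Without the replicate block the counts were 10 for stimulation, 8 for stimulation in CD25High cells and 0 for population and genotype. With no filter 8 calls were left (6 higher and 2 lower), while all probes split into 622 higher and 540 lower. Under this setting and under scaling to the array median, the 3 immunoproteasome genes did not all pass. The scaling left 7 calls (5 higher and 2 lower) while all probes split into 590 higher and 947 lower, against 876 and 895. That scaling gave a median of 0.22 for population and 0.09 for genotype. For stimulation in CD25High cells the main count of 6 (14.1% of all probes called) became 14 with no background correction (17.1%), 10 with probes detected on all 8 arrays (20.5%), 12 with the trended robust model (18.8%) and 12 without the KO CD25High stimulated array (22.7%). For stimulation in CD45High cells the main count of 0 (0.941%) became 2 with no background correction (2.91%), 4 with the trended robust model (4.55%) and 11 with that array left out (22.2%). The population count became 1 with no background correction (6.45%). Leaving out each pair in turn gave 0 to 14 calls for stimulation (at the highest count 22.8% of all probes), 0 to 16 for stimulation in CD25High cells (35.9%) and 0 to 11 in CD45High cells (22.2%), 0 to 6 for their difference (18.2%), 0 to 15 for genotype in CD25High cells (27.9%) and 0 to 8 for the genotype difference between populations (16%); there a lone pair is assumed to vary like the others. The causes were not tested. A block for chip or slide was not run, since the headers used here give neither. Members detected on 2 or 3 arrays lie near background, where signal limits what can be seen.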
